A study of Mus musculus with 8 samples.

Results

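Glucose uptake, glycolysis and the use of pyruvate were followed through 32 genes in the embryonic mouse heart. The genes were taken by name, as transporters, enzymes and regulators from the plasma membrane to the mitochondrion, by a rule that uses no measured value. The rule leaves out phosphoglycerate kinase and the other subunits of pyruvate dehydrogenase. The genes taken are 32 of the 49315 genes of the deposited count table, and all 32 passed the filter on low counts. The study sequenced RNA from hearts of C57BL/6 mice at embryonic day 9.5, the age of a beating looped heart tube, and compared 4 Female with 4 Male libraries. Both groups share the strain and the age, and the labels name no mutation, transgene or treatment, so that sex is the only labelled difference. Each embryo was assigned its sex by a test for Sry, the testis-determining gene of chromosome Y, in tissue outside the heart. Nothing in the labels tells whether a library held 1 heart or a pool, or which embryos were littermates. The p-values therefore measure only the spread between these libraries, which may be in part technical.

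The libraries held 20105913 to 51134291 counts, and mitochondrial genes took 0.707% (Male replicate 2) to 1.72% (Female replicate 4) of them. Levels are given as CPM, counts scaled to a common library total corrected by the TMM factor of each library, and values listed for a sex follow the order of replicates 1 to 4. All 14 markers fixed for cardiac muscle were detected, led by the actin Actc1 and the myosins Myl7 and Myh6, and they summed to 42764 to 53956 CPM in females and 46827 to 73901 CPM in males. Male replicate 2 stood apart from the other 7 libraries: it was the highest or lowest library for 65.3% of all 16377 genes tested. In Female replicate 1, markers of liver bud and yolk sac summed to 83.1 CPM, against 3.47 to 34.8 CPM in the other 7 libraries. Several results are therefore given with and without 1 of these libraries.

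Glucose enters the cell through transporters of the Slc2a family, is trapped by hexokinase and is split by the glycolytic enzymes into pyruvate. Lactate dehydrogenase turns pyruvate into lactate, which leaves through monocarboxylate transporters, while the mitochondrial pyruvate carrier and pyruvate dehydrogenase lead pyruvate into oxidation. The embryonic heart is known to rely on glycolysis before it turns to fatty acids after birth, and many glycolytic genes are known targets of hypoxia-inducible factors.

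The 32 genes took 2.59% (Female replicate 4) to 3.01% (Female replicate 2) of all counts. That share was 2.77 ± 0.205% in females and 2.79 ± 0.104% in males (mean ± SD, n = 4 each), so the sexes differed by less than the spread within each. Aldoa, Tpi1, Gapdh, Eno1, Pkm and Ldha alone held 73.6% to 75.2% of the counts of the 32 genes in each library. To compare genes of different length, CPM was divided by the deposited exon length in kilobases (kb), and those of the 32 genes that serve 1 step were summed. Glyceraldehyde-3-phosphate dehydrogenase stood at 1319 ± 126 CPM per kb (mean ± SD over the 8 libraries, as for all levels per kb). Lactate dehydrogenase reached 1095 ± 71.6, enolase 1018 ± 161 and aldolase 929 ± 139 CPM per kb, and each differed from the next by less than the SD of the lower one. The level was 793 ± 224 CPM per kb at phosphoglycerate mutase, 648 ± 84.9 at pyruvate kinase and 535 ± 39.9 at triosephosphate isomerase. Phosphoglycerate kinase has no gene among the 32, and its gene Pgk1 stood at 560.0 CPM per kb.

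The entry steps were lower than these lower-glycolysis steps. Summed levels per kb were 342 ± 22.6 CPM for the glucose transporters, 209.9 ± 25.4 for phosphofructokinase, 206 ± 28.5 for phosphoglucose isomerase and 89.7 ± 11.0 for hexokinase, the lowest of the glycolytic enzymes. Past pyruvate, the monocarboxylate transporters summed to 165 ± 19.97 CPM per kb and Pdhb to 161 ± 8.12, which differed by less than 1 SD of the former. The pyruvate carrier summed to 11.4 ± 0.464 CPM per kb. For regulators the 32 genes hold only some of the family: Pdk1, Pdk2 and Pdk4 summed to 27.1 ± 3.28 CPM per kb, and to 66.0 ± 6.41 with Pdk3, a kinase gene of chromosome X that is not among the 32. Pfkfb2 and Pfkfb3 summed to 3.45 ± 0.539 CPM per kb, and to 6.06 ± 0.927 with Pfkfb1 and Pfkfb4. The deposited exon length joins all exons of a gene, 4133 bases for Gapdh against a GENCODE transcript of 1273 bases, and long genes with rare exons are understated by it. With GENCODE transcript lengths, a choice made after seeing the data, Gapdh was still first at 4281 CPM per kb. Enolase at 2339 and aldolase at 2310.0 then came before lactate dehydrogenase at 2169.8, and the pyruvate carrier was at 62.9 CPM per kb. Several orders turned with these lengths. Phosphoglycerate mutase at 798 came after pyruvate kinase at 1446 and triosephosphate isomerase at 1224. Phosphoglucose isomerase at 462 passed the glucose transporters at 383 and phosphofructokinase at 281, and the monocarboxylate transporters at 317 stood above Pdhb at 158 CPM per kb. The plot of levels in pathway order shows each gene in each library.

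**Figure D1:**
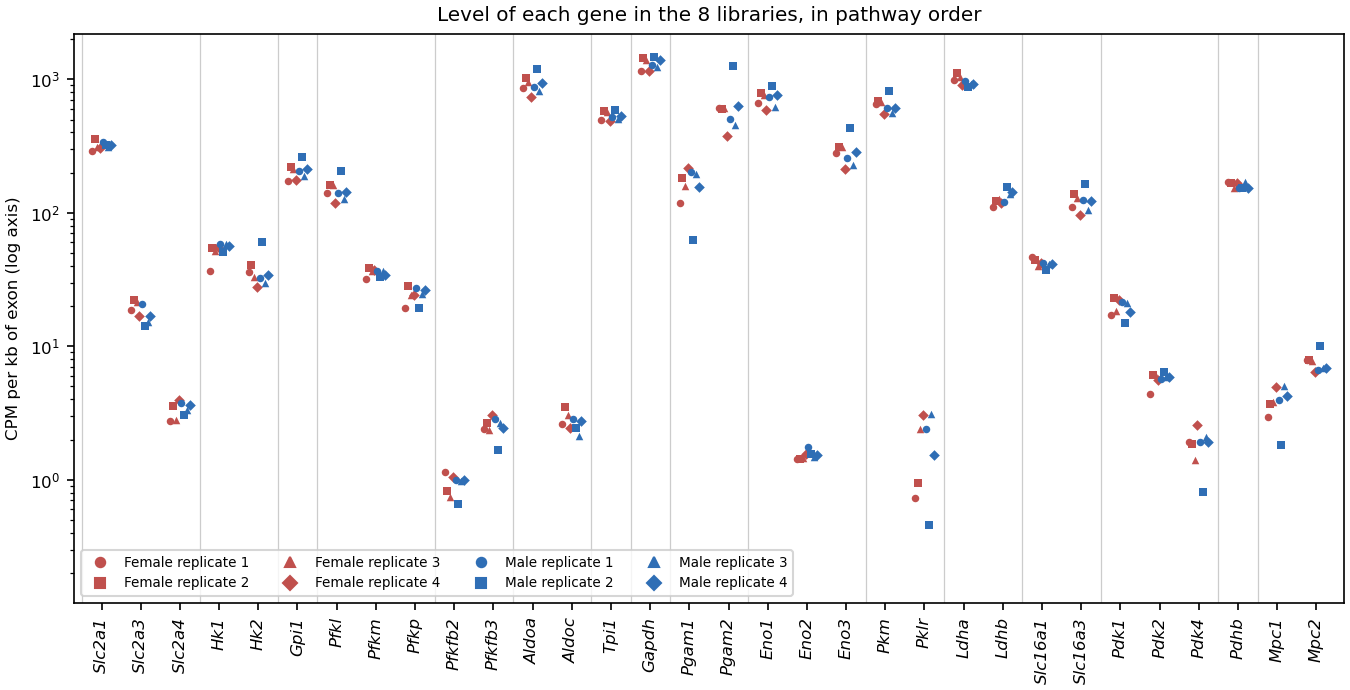
Level of the 32 genes in pathway order, in CPM per kb of deposited exon length on a log axis, with 1 point for each of 4 Female (red) and 4 Male (blue) libraries and vertical lines between steps. The points of both sexes overlap for every gene, and the square of Male replicate 2 lies outside the others for Pgam1, Pgam2 and Hk2.

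Slc2a1 encodes GLUT1, the transporter of basal glucose uptake, and was the main transporter (ENSMUSG00000028645, chr4:119108711-119137983, plus strand, GRCm38). Its level was 1015, 1256, 1092 and 1081 CPM over the Females, and 1191, 1121, 1093 and 1124 CPM over the Males. Female replicate 2 was highest and Female replicate 1 lowest, only 1.24-fold apart, and the sexes overlapped. Slc2a1 held 93.7 ± 0.707% of the transporter signal per kb (mean ± SD, 8 libraries). Slc2a3 encodes GLUT3, a transporter of high affinity, and stood at 135, 159.9, 156 and 123 CPM over the Females, and 150.5, 103, 110.2 and 122 CPM over the Males. Its 3 lowest libraries were Males and its 2 highest Females, but Male replicate 1 lay among the Females; the log2 fold change, male minus female, was -0.24 ± 0.14 (SE). Slc2a4, the insulin-responsive GLUT4 of adult muscle and fat, was present at only 9.53 to 13.7 CPM, or 0.980 ± 0.116% of the transporter signal.

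Hexokinase phosphorylates glucose, and 2 of the 32 genes encode it. Hk1, the widely expressed form, stood at 314, 468, 444 and 471 CPM over the Females, and 501, 431, 496 and 483 CPM over the Males. Female replicate 1 was far below the other 7 libraries, which lay between 430.6 and 500.5 CPM. Hk2, the form typical of muscle and growing cells, stood at 216, 242, 197 and 167 CPM over the Females, and 195, 363, 179 and 203 CPM over the Males. Here Male replicate 2 was far above the rest, and no sex was higher throughout. Hk2 therefore supplied 33.6% of the hexokinase signal per kb in Female replicate 4 and 54.6% in Male replicate 2, where it passed Hk1, with 40.8 ± 7.63% over the 8 libraries. That crossing depends on the length used: in CPM, Hk1 stayed above Hk2 in Male replicate 2, at 431 against 363. The mean Hk2 share was 32.7% without the length correction and 30.5% with GENCODE lengths. Gpi1, which turns glucose-6-phosphate into fructose-6-phosphate, ran at 1121 to 1692 CPM, lowest in Female replicate 1 and highest in Male replicate 2.

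Phosphofructokinase commits sugar to glycolysis. Pfkl, the liver-type subunit, gave 71.1 ± 4.35% of its signal per kb, Pfkm, the muscle type, 17.2 ± 2.41% and Pfkp, the platelet type, 11.7 ± 2.08%. Pfkl stood at 622, 704, 706 and 517 CPM over the Females, and 620.5, 908, 562 and 635 CPM over the Males. The highest value was that of Male replicate 2 and the lowest that of Female replicate 4. Pfkm (94.0 to 113 CPM) and Pfkp (183 to 266 CPM) varied less, and in Male replicate 2 their shares were 12.7% and 7.52%, the lowest of the 8 libraries. With GENCODE lengths Pfkp came second, at 24.0%, ahead of Pfkm at 13.4%, so the order of these 2 depends on the length used. Pfkfb2 and Pfkfb3 make and break down fructose-2,6-bisphosphate, the activator of phosphofructokinase. Both were scarce, with Pfkfb2 at 4.75 to 8.25 CPM and Pfkfb3 at 12.7 to 23.2 CPM, each lowest in Male replicate 2.

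The aldolase step was carried almost wholly by 1 gene. Aldolase splits the phosphorylated sugar, and Aldoa, the muscle form, held 99.7 ± 0.0451% of its signal. Aldoa stood at 3244, 3831, 3614 and 2779 CPM over the Females, and 3282, 4489.9, 3092 and 3542 CPM over the Males. Aldoc, the brain form, lay between 6.98 and 11.5 CPM. Tpi1, triosephosphate isomerase, varied only 1.21-fold, from 1337 to 1621 CPM. Gapdh, which makes the first NADH of the pathway, was the most abundant of the 32 genes, at 4747, 5984, 5771 and 4799.5 CPM over the Females, and 5300.0, 6062, 5156 and 5779 CPM over the Males. Its range was 1.28-fold, with Female replicates 1 and 4 lowest and Male replicate 2 highest. Its coefficient of variation was 9.55%, against 31.6% for Pgam1 and 28.1% for Hk2.

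Phosphoglycerate mutase was the step with the largest exchange between 2 genes. Pgam1 encodes the subunit found in most tissues and Pgam2 the subunit of skeletal and cardiac muscle. The sequences before their starts are shown because the pair varied in opposite directions across libraries, and because only Pgam2, among the 30 genes with a promoter entry, held a match to the MEF2 consensus, the site read by a family of muscle transcription factors. Each is the stretch of 250 bases before a RefSeq start on GRCm38.p6, 5′ to 3′ on the strand of the gene. Capitals mark ACGTG, the core letters bound by hypoxia-inducible factors, in Pgam1 (chr19:41911621-41911870, plus strand) and the MEF2 match in Pgam2 (chr11:5803797-5804046, minus strand).
Pgam1 promoter: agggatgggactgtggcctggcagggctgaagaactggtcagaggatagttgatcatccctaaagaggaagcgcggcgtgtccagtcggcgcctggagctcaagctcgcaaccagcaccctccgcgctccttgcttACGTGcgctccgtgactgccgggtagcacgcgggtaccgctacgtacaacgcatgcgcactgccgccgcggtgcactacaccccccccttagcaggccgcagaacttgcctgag
Pgam2 promoter: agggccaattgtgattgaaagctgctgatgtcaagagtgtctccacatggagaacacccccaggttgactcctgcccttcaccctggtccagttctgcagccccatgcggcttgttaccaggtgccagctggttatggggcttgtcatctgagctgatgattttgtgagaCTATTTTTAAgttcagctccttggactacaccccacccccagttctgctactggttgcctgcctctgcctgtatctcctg
The MEF2 match of Pgam2 begins 80 bases and the ACGTG of Pgam1 114 bases before the start. Of all 27025 genes in the table, 3.4% held a MEF2 match and 18.5% an ACGTG on either strand in such a window. The 1 MEF2 match among the 30 genes (3.3%) is thus near the share over all genes. A match describes letters only and shows no binding.

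Pgam1 (ENSMUSG00000011752, chr19:41911871-41918664, plus strand) stood at 217, 334, 289.6 and 399.6 CPM over the Females, and 371, 114, 361 and 287 CPM over the Males. Pgam2 (ENSMUSG00000020475, chr11:5801640-5803733, minus strand) stood at 510.2, 507, 513 and 317 CPM over the Females, and 425, 1059, 383 and 527 CPM over the Males. Male replicate 2 was thus lowest in Pgam1 and highest in Pgam2, and Female replicate 4 was the reverse. The sexes overlapped for both genes. Per kb, Pgam2 over Pgam1 reached 20.3 in Male replicate 2, with 1.73 in Female replicate 4 and 2.32 to 5.11 elsewhere. Pgam2 supplied 83.6, 76.8, 79.4 and 63.4% over the Females, and 71.4, 95.3, 69.8 and 80.0% over the Males, of the mutase signal per kb, more than Pgam1 in every library. Without the length correction its mean share was 62.3% in place of 77.5%, since its exons total only 840 bases.

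Enolase makes phosphoenolpyruvate. Eno1, the widespread form, gave 71.6 ± 2.20% of the signal per kb and Eno3, the muscle form, 28.2 ± 2.22%, while Eno2, the neuronal form, stayed at 6.68 to 8.26 CPM. The Eno3 share depended on length and was 14.6% with GENCODE lengths and 11.3% with none. Eno1 stood at 3579, 4222, 4087 and 3193 CPM over the Females, and 3959, 4805, 3344 and 4092 CPM over the Males. Eno3 (ENSMUSG00000060600, chr11:70657202-70662513, plus strand) stood at 491, 545, 538 and 371 CPM over the Females, and 444, 752, 399 and 493 CPM over the Males. Both were highest in Male replicate 2 and lowest in Female replicate 4, with a wider span in Eno3, 2.03-fold, than in Eno1. Pyruvate kinase makes pyruvate, and Pkm held 99.7 ± 0.195% of its signal, at 2738 to 4074 CPM. Pkm makes 2 splice forms, PKM1 and PKM2, which counts per gene cannot separate. Pklr, the form of liver and red cells, was listed at 2.38, 3.06, 7.80 and 9.91 CPM over the Females, and 7.82, 1.49, 10.03 and 4.94 CPM over the Males. This trace level spanned 6.75-fold without following sex, and was lowest in Male replicate 2 and Female replicate 1.

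Lactate dehydrogenase has an A subunit, known to favour lactate production and encoded by Ldha, and a B subunit, encoded by Ldhb and typical of oxidative tissue. The Ldha promoter is shown because it held the ACGTG letters 5 times, on 1 strand or the other. The window is chr7:46845554-46845803, plus strand (GRCm38.p6, RefSeq), before the first of the 2 starts that the table lists, and capitals mark every match of ACGTG or of its reverse complement CACGT.
Ldha promoter: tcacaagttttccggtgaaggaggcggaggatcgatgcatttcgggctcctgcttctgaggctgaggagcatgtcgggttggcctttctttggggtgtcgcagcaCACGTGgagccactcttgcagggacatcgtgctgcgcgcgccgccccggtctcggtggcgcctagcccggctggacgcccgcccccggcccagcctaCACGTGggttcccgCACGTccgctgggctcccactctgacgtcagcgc
Both CACGTG sites read ACGTG on either strand and so account for 4 of the 5 matches. The match nearest the start begins 34 bases before it, and the window is 67.2% G and C, against a median of 52.4% over all promoters.

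Ldha (ENSMUSG00000063229, chr7:46841475-46855627, plus strand) stood at 3263, 3677, 3437 and 2991 CPM over the Females, and 3242, 2894, 3032 and 3056 CPM over the Males. Female replicate 2 was highest and Male replicate 2 lowest, and the sexes overlapped. Ldhb (ENSMUSG00000030246, chr6:142490249-142507957, minus strand) stood at 172, 191, 198 and 187 CPM over the Females, and 189, 243, 216 and 223 CPM over the Males. Its 3 highest libraries were Males, but Male replicate 1 lay within the Females. The ratio of Ldha to Ldhb per kb was 8.98, 9.12, 8.23 and 7.57 over the Females, and 8.15, 5.64, 6.67 and 6.49 over the Males. The 3 lowest ratios were Males, with Male replicate 1 again among the Females. Lactate leaves through the monocarboxylate transporters. Slc16a3, or MCT4, known for lactate export from glycolytic cells, stood at 583, 738, 686 and 508 CPM over the Females, and 659.9, 869, 557 and 656 CPM over the Males and held 74.3 ± 3.90% of the transporter signal per kb (86.5% with GENCODE lengths). Slc16a1, or MCT1, which can carry lactate in or out, was steadier at 164 to 206 CPM, and was the lowest in Male replicate 2.

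Pyruvate dehydrogenase turns pyruvate into acetyl-CoA and is switched off by its kinases. Pdhb, the beta subunit of its first enzyme, was the steadiest of the 32 genes, at 227 to 252 CPM with a coefficient of variation of 5.04%. Pdk1, a kinase known to be induced by hypoxia, stood at 133, 179, 142 and 174 CPM over the Females, and 166, 116, 163 and 141 CPM over the Males and gave 71.9 ± 2.34% of the summed signal per kb of Pdk1, Pdk2 and Pdk4. Pdk3 stood higher per kb, at 38.8 ± 3.27 CPM against 19.5 ± 2.84 CPM for Pdk1, and with it counted Pdk3 held 59.0 ± 1.34% and Pdk1 29.5 ± 1.63% of the kinase signal. The lowest Pdk1 values were those of Male replicate 2 and Female replicate 1, and the sexes overlapped. Pdk2 stood at 13.9 to 20.2 CPM, or 21.5 ± 3.53% of the signal of the 3 genes. Pdk4, known to rise with fatty acid use and fasting, stood at only 2.86 to 8.98 CPM and 6.61 ± 1.55%, lowest in Male replicate 2. The mitochondrial pyruvate carrier is a pair of Mpc1 and Mpc2. Mpc1 counts were low, 3.79 to 10.4 CPM against 47.5 to 74.4 CPM for Mpc2. Male replicate 2 was lowest in Mpc1 and highest in Mpc2, so the Mpc2 share per kb ran from 56.6% (Female replicate 4) to 84.8% (Male replicate 2). With GENCODE lengths its mean share was 85.9% in place of 66.5%.

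No difference between male and female hearts was called in any of the 32 genes. Of 16377 genes tested with edgeR's quasi-likelihood test, 6 passed at an adjusted p below 0.05, a background of 0.0366%, and 0 of the 32 genes were among them. At an unadjusted p below 0.05, 0 of the 32 were found by edgeR (2.24% of all genes), 1 by DESeq2 (1.93%) and 0 by limma-voom (2.5%), and 0 passed after adjustment with any of the 3. In 20 of the 32 the estimate was higher in males, and the median log2 fold change was 0.029, against 0.011 over all genes tested. The direction was not stable: 16 of 32 were higher in males with library size alone, and 8 of 32 without Female replicate 1 and Male replicate 2, where the median was -0.031. Ranges of CPM failed to overlap between the sexes in 0 of the 32 genes, against a background of 2.25% of genes. All 14 cardiac muscle markers were tested, and 13 had higher estimates in males. Of these markers 0 passed, and 3 had an unadjusted p below 0.05 by edgeR, which 2.24% of all genes had. Other marker lists leaned too: 7 of 8 epicardial, 1 of 13 foregut and 1 of 7 liver bud and yolk sac markers were higher in males. Median log2 fold changes were 0.24 for muscle, 0.34 for epicardium, -0.75 for foregut and -0.68 for liver bud and yolk sac. They were 0.0028 for endocardium, 0.076 for red cells and -0.067 for mesenchyme and neural crest. The part of any list in the direction of the 32 genes was not tested.

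The smallest unadjusted p belonged to Ldhb, which averaged 187 ± 10.9 CPM among Females, against 218 ± 22.6 CPM among Males (mean ± SD, n = 4 each). Its log2 fold change was 0.22 ± 0.10 (SE), with an adjusted p of 0.9995 by edgeR. The largest estimate was that of Pgam2, 0.37 ± 0.32, with 462 ± 96.3 CPM among Females, against 599 ± 313 CPM among Males. It turned to -0.053 without Male replicate 2. Slc2a3 had the largest negative estimate, -0.24 ± 0.14, followed by Pdk4 at -0.21 ± 0.29 and Aldoc at -0.19 ± 0.15. Hk2 at 0.19 ± 0.23, Hk1 at 0.17 ± 0.14 and Gpi1 at 0.16 ± 0.14 were on the positive side. Without Male replicate 2, Hk2 turned to -0.10, Gpi1 stood at 0.053 and Pdk4 turned to 0.014. Without Female replicate 1, Hk1 stood at 0.053. Tpi1 at 0.012 ± 0.11 and Pkm at 0.018 ± 0.15 were closest to 0. The widest errors were those of Pklr, 0.063 ± 0.59, and Pgam1, -0.13 ± 0.34, both of which varied widely between libraries (6.75-fold and 3.51-fold). The plot of male minus female estimates shows all 32 with their errors.

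**Figure D2:**
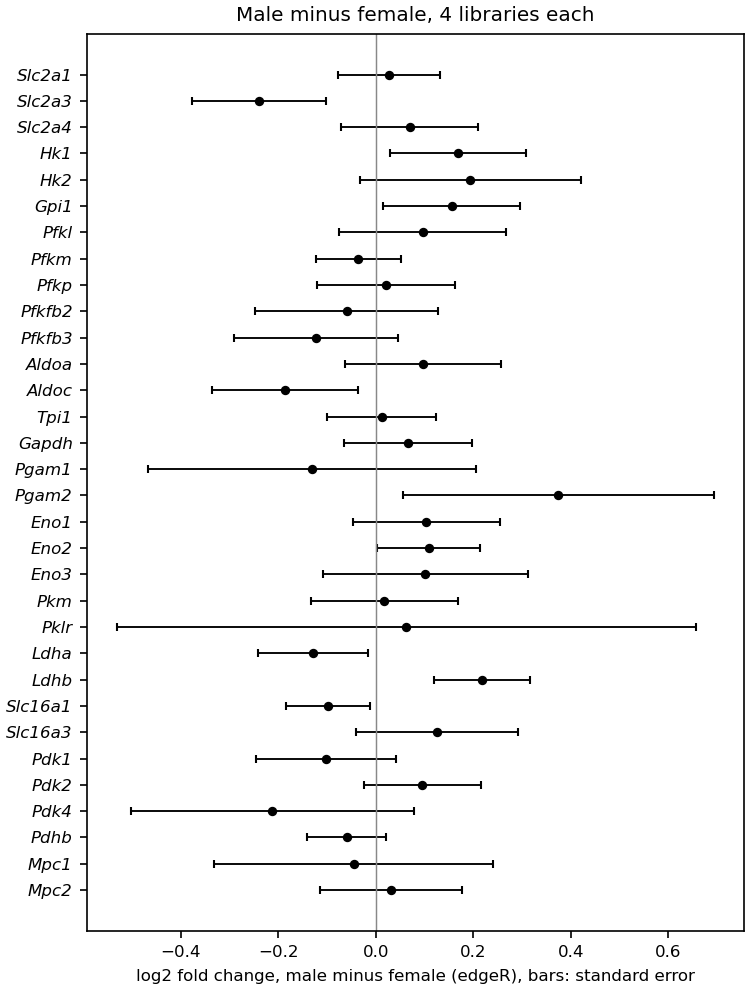
Log2 fold change, male minus female, of each of the 32 genes from the edgeR fit over 8 libraries (4 Female, 4 Male), with bars of 1 standard error and genes in pathway order. Points lie between -0.24 (Slc2a3) and 0.37 (Pgam2), and none passed the test.

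Other genes of the same pathways gave the same count. Of 48 further genes of glucose entry, glycolysis, gluconeogenesis, lactate and pyruvate use, 35 had enough counts to be tested and 0 passed, with 1 of the 35 at an unadjusted p below 0.05 (2.24% of all genes) and 17 higher in males. Per kb the highest 4 were Pgk1 (560.0 CPM), phosphoglycerate kinase, Bsg (487 CPM), the chaperone of monocarboxylate transporters, Pgm1 (120.0 CPM), a phosphoglucomutase, and Pgp (86.4 CPM), a phosphatase of glycolytic side products. Pgk1 averaged 1350.4 ± 153 CPM among Females and 1163 ± 282 CPM among Males (SD, 4 libraries each), with an adjusted p of 0.9995 by edgeR. The gene at the unadjusted threshold was Emb, a further transporter chaperone, named after its value was seen, with a log2 fold change of -0.35 ± 0.15 (SE) and an adjusted p of 0.9995 by edgeR. Female replicate 1 was its highest library, at 67.2 CPM against 37.6 to 44.7 CPM in the other 7, and without it the estimate was -0.15 ± 0.081 (SE). Of the fatty acid genes, 25 of 26 were tested, 13 were higher in males and 0 passed. Their summed level was 1836 to 2024 CPM in females and 1906 to 2182 CPM in males.

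The choice of gene within a step was compared apart from library scaling, as the share of 1 gene in the level per kb of those of the 32 that serve its step, at 12 steps. By exact 2-sided permutation over the 70 divisions into 4 and 4, whose smallest p is 0.0286, 0 of 12 shares had an unadjusted p below 0.05 and 0 passed after adjustment. A lone share cannot fall below an adjusted p of 0.343 here, and 7 of the 12 would have to reach the smallest p together to pass, so the adjusted test could hardly be passed. The smallest p was that of the Ldha share, 89.4 ± 0.826% in females and 86.9 ± 1.69% in males, a difference of -2.49 percentage points (exact permutation p = 0.0571, adjusted over 12 shares p = 0.343). It was lower in 3 of 4 Males than in every Female. For the Slc2a1 share the means were 93.2 ± 0.377% in females and 94.1 ± 0.682% in males (exact permutation p = 0.0857, adjusted p = 0.343). At hexokinase, the Hk2 share was 41.1 ± 6.68% in females and 40.5 ± 9.53% in males.

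**Figure D3:**
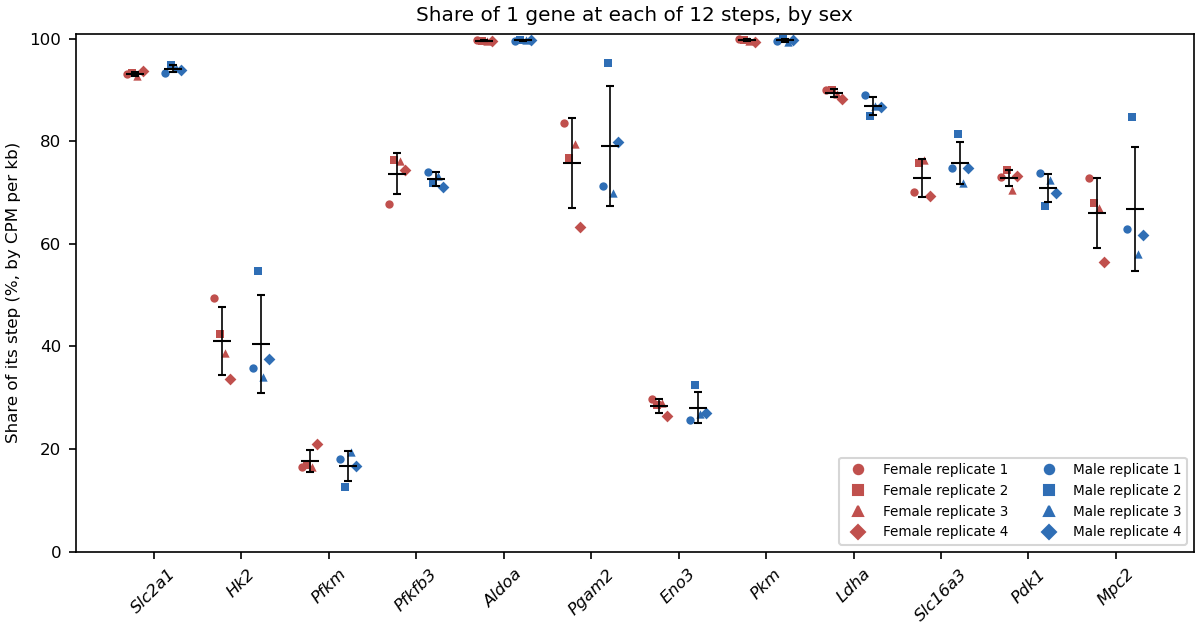
Share of 1 gene in the signal of its step, in percent of CPM per kb, for 12 steps with 2 or more of the 32 genes, with 1 point for each library and a bar at the mean ± SD of 4 Female (red) and 4 Male (blue) libraries. Aldoa and Pkm lie near 100%, and Hk2, Pgam2 and Mpc2 spread most, with Male replicate 2 highest.

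Over all 8 libraries taken as 1 set, some of the genes varied together. Pearson's r of log2(CPM + 0.5) was computed for the 496 pairs as a description; the libraries differ in depth and tissue make-up, and all pairs share them. The median r was 0.101, against 0.001 over all pairs of tested genes, and 14.1% of pairs reached 0.8, against 7.9%. At or below -0.8 were 8.9% of pairs, against 7.9%. Without Male replicate 2 the median was 0.159, against -0.001 over all genes. In that set 14.9% of pairs reached 0.8, against 4.6%, and 1.4% lay at or below -0.8, against 4.5%. The strong negative pairs thus rested largely on 1 library.

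The tightest pairs joined Pfkl, an enzyme of the entry steps, with genes of lower glycolysis, or these genes with each other and with Slc16a3. For Pfkl and Eno3, r was 0.99 over 8 libraries and 0.97 without Male replicate 2. Eno3 with Pkm gave 0.99 and 0.97, Eno1 with Slc16a3 0.99 and 0.98, and Aldoa with Slc16a3 0.98 and 0.96. Libraries that held more Pfkl and Aldoa also held more of the muscle enolase and the lactate exporter. A smaller group joined Slc2a3, Ldha and Aldoc, with r of 0.92 for Slc2a3 and Ldha (0.89 without Male replicate 2) and 0.85 for Slc2a3 and Aldoc (0.90). Pgam1 went with Pfkfb3, at 0.97 and 0.86, with Mpc1, at 0.95 and 0.81, and with Pdk1, at 0.91 and 0.87. The genes of 1 step did not all pair with the same sign. Pgam1 and Pgam2 gave -0.94 (-0.75 without Male replicate 2) and Mpc1 and Mpc2 -0.94 (-0.80), whereas Eno1 and Eno3 gave 0.92 (0.88). Gapdh and Ldha, the abundant dehydrogenases, gave 0.22 (0.58 without Male replicate 2).

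**Figure D4:**
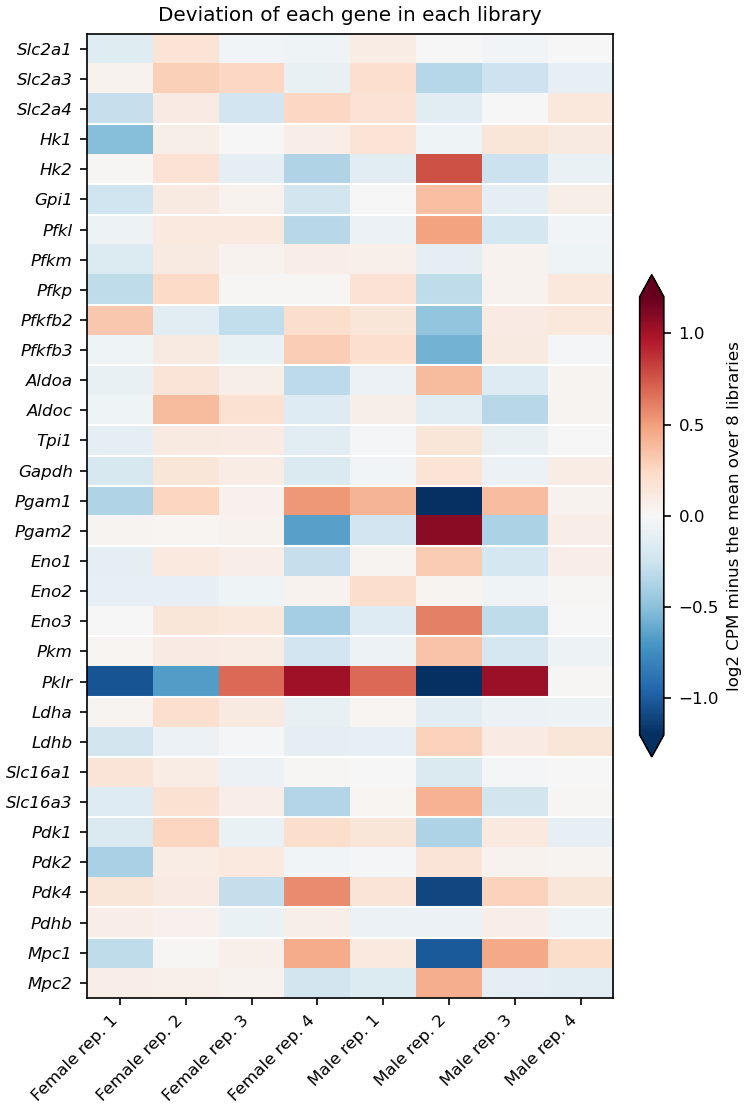
Log2 CPM of each of the 32 genes minus its mean over the 8 libraries, with genes in rows in pathway order and libraries in columns; red is above the mean, blue below, and the color scale is clipped where the arrows show. Male replicate 2 holds strong colors, red in Hk2, Pgam2 and Eno3 and blue in Pgam1, Pklr, Pdk4 and Mpc1.

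The group of Pfkl, Aldoa, Eno1 and their partners followed the level of cardiac muscle genes, and some of them also that of foregut markers, as given below. The 14 markers summed to 47196, 53956, 53556 and 42764 CPM over the Females, and 51422, 73901, 46827 and 56864 CPM over the Males. Over 8 libraries, 11 of the 32 genes had r of at least 0.8 with that sum, against a background of 15.1% of all genes tested. In 9 of them r stayed at 0.8 or above without Male replicate 2, against a background of 2.54%: Gpi1, Pfkl, Aldoa, Tpi1, Gapdh, Pgam2, Eno1, Eno3 and Slc16a3. Hk2 and Pkm were the 2 that did not, at 0.63 and 0.68.

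For Eno1, r was 0.94 and Spearman's rho 0.98, and r was 0.91 without both Male replicate 2 and Female replicate 4, the libraries farthest from the median. Gpi1 gave 0.96, 0.90 and 0.89 in the same order, and Gapdh 0.83, 0.90 and 0.88. Pgam2 went from 0.95 to 0.61, Eno3 from 0.93 to 0.62 and Pfkl from 0.94 to 0.66 when these 2 libraries were left out. Slc2a1 stood at 0.30 and Ldha at -0.16, and both were higher without Male replicate 2, at 0.53 and 0.50, still below 0.8. On the negative side, Pdk4 at -0.92, Pfkfb3 at -0.87 and Pgam1 at -0.80 reached -0.8, 3 of 32 against a background of 15.3%. Without Male replicate 2 they stood at -0.71, -0.56 and -0.27. In bulk tissue, more muscle cells and more RNA per muscle cell cannot be told apart. All values carry the same 8 libraries, and CPM ties the genes of a library to 1 total.

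**Figure D5:**
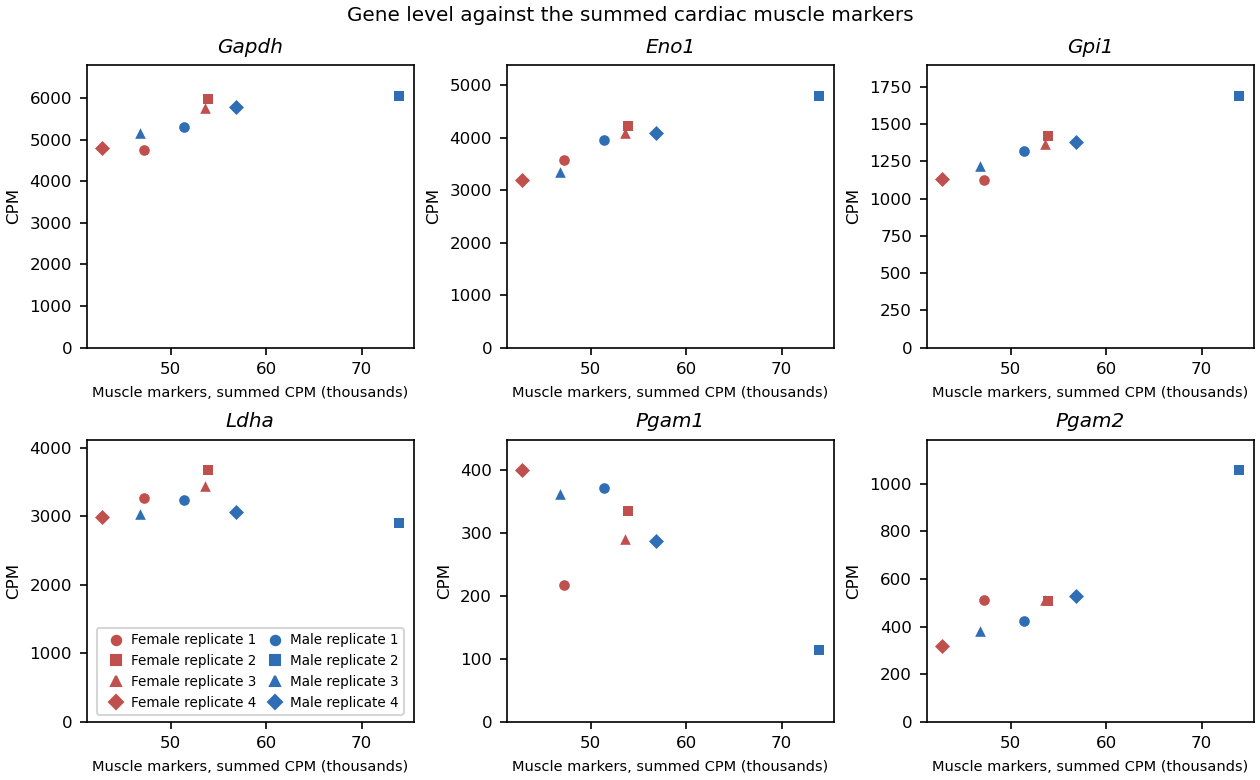
CPM of Gapdh, Eno1, Gpi1, Ldha, Pgam1 and Pgam2 (y axes from 0) against the summed CPM of 14 cardiac muscle markers, with 1 point for each of the 8 libraries. Gapdh, Eno1 and Gpi1 are higher where the markers are higher, Ldha lies lowest in the library with the highest markers, and Male replicate 2 lies far to the right at 73901 CPM, lowest in Pgam1 and highest in Pgam2.

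Markers of other cell types moved with some of the same genes. The 10 endocardial markers, led by Plvap, Egfl7 and Tie1, were all tested and summed to 802 to 926 CPM in females and 785 to 905 CPM in males. With that sum, 5 of the 32 genes had r of at least 0.8, against a background of 14.1%: Slc2a4 (0.88), Pfkfb3 (0.85), Pgam1 (0.84), Mpc1 (0.83) and Pdk1 (0.80). At or below -0.8 were 5 more, against 14.5%: Mpc2 (-0.89), Pkm (-0.86), Eno3 (-0.85), Pgam2 (-0.82) and Pfkl (-0.80). Both counts were near their backgrounds, and 6 of the 32 genes stayed beyond 0.8 or -0.8 without Male replicate 2, against 21.6% of all genes. The 13 foregut markers, led by Krt8, Krt18 and Hhex, were all tested and summed to 243 to 464 CPM in females and 234 to 558 CPM in males, highest in Male replicate 2. That sum is weighted to the most abundant markers. With each of the 13 given equal weight, the mean log2 deviation was highest in Female replicate 1, at 1.26, against 0.77 in Male replicate 2. With the foregut sum, 5 genes reached 0.8, against 15.6%, given here with r over 8 libraries and then without Male replicate 2. They were Pkm (0.92, 0.87), Mpc2 (0.90, 0.89), Eno3 (0.88, 0.80), Pfkl (0.84, 0.72) and Pgam2 (0.84, 0.76). Eno3, Pfkl and Pgam2 also followed the muscle markers. Without Male replicate 2 and Female replicate 1, farthest from the median foregut sum, their r was 0.91, 0.92 and 0.76. In that set the other genes that followed the muscle markers were also high. Their r was 0.94 for Tpi1, 0.81 for Aldoa and Slc16a3, 0.80 for Eno1, 0.79 for Gapdh and 0.75 for Gpi1, each below 0.8 over 8 libraries. At or below -0.8 over 8 libraries were 5 more, against 15.6%, the strongest being Mpc1 (-0.91). Both counts were again near the backgrounds, and 5 of the 32 stayed beyond either bound without Male replicate 2, against 19.5%. Primitive red cell markers, 4768 to 12634 CPM in females and 6472 to 9937 CPM in males, had r beyond 0.8 or -0.8 with 0 of the 32 genes, against a background of 0.697%. Without Male replicate 2, 1 of the 32 was beyond, Slc16a1 at -0.84, against 1.91%. Epicardial markers (8 of 8 tested, 69.4 to 117 CPM in females and 71.2 to 143 CPM in males) and markers of mesenchyme and neural crest (8 of 10 tested, 192 to 218 CPM in females and 187 to 212 CPM in males) were not compared with single genes. No gene of any of these marker lists passed the test between the sexes. The part of any of these cell types in the spread of the 32 genes was not tested.

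Hypoxia-response genes other than the 32 were compared in the same way. Of 19 such genes, led by Hif1a, Higd1a and Egln1, all were tested, 4 were higher in males and 0 passed. Their sum ran from 953 to 1128 CPM in females and from 842 to 1039.5 CPM in males, lowest in Male replicate 2. That sum, too, is weighted to the most abundant genes. With equal weight, the mean log2 deviation was also lowest in Male replicate 2, at -0.34, and highest in Female replicate 2, at 0.20. Pdk1 followed the sum most closely, with r of 0.93 over 8 libraries, rho of 0.88, and r of 0.86 without Male replicate 2. In all, 4 of 32 genes reached 0.8, a share near the background of 9.9%. The other 3 lost it without Male replicate 2: Pfkfb3 went from 0.88 to 0.63, Pgam1 from 0.85 to 0.52 and Pdk4 from 0.84 to 0.49. For this list no share over all genes was computed without Male replicate 2, so the r of Pdk1 there has no background. Slc2a1 (0.36) and Ldha (0.54), also known targets, were not among them. The most negative r over 8 libraries were those of Pgam2 (-0.79), Eno3 (-0.69), Mpc2 (-0.68) and Pfkl (-0.68). Without Male replicate 2 they were -0.34, -0.18, -0.04 and -0.14. Without Male replicate 2 and Female replicate 2, farthest from the median of the sum, they were -0.92, -0.97, -0.68 and -0.93.

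By sequence, 30 of the 32 genes had a promoter entry, those without one being Slc2a3 and Slc2a4. An ACGTG on either strand lay in the 250 bases before a start in 13 of the 30 (43.3%), against 18.5% of all genes. They were Slc2a1, Hk2, Pfkm, Pfkfb2, Pfkfb3, Aldoa, Pgam1, Pkm, Ldha, Slc16a1, Slc16a3, Pdk2 and Pdhb. GCGTG, the other core read by hypoxia-inducible factors, was in 20 (66.7%), against 30.9% of genes. CACGTG, which contains ACGTG on both strands, was in 6, against 6.9% of genes. A gene can have several promoter entries, and the 30 genes have 48. Counted by entry, ACGTG lay in 35.4% of the 48, against 16.6% of all entries. For GCGTG it was 52.1%, against 28.2%. The part of the G and C content of the windows in these shares was not tested. Of the 4 genes that reached 0.8 with the hypoxia list, Pfkfb3 and Pgam1 had both ACGTG and GCGTG in this window, and Pdk1 and Pdk4 had GCGTG alone. Ldha, with 5 of ACGTG, had r of 0.54 with the list, 0.29 without Male replicate 2 and -0.70 without Male replicate 2 and Female replicate 2, so its sign rests on those libraries. No match says only that the letters are not in these bases.

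The 32 genes lie on 14 autosomes and none on a sex chromosome. Chromosome 6 holds 7 of them, and Eno2, Tpi1 and Gapdh lie closest together: 40.9 kb separate Eno2 from Tpi1 and 347 kb separate Tpi1 from Gapdh (GRCm38, from the deposited positions). Tpi1 and Gapdh had r of 0.94 and Eno2 and Tpi1 r of -0.10. Male replicate 2 was the highest library for 14 of the 32 genes and the lowest for 11, together 78.1%, against 65.3% of all genes. Female replicate 4 was an extreme for 14 (43.8%), against 42.7%. Female replicate 1 was an extreme for 12 (37.5%), against 21.5%, and Female replicate 2 for 7 (21.9%), against 9.4%. Female replicate 3 and Male replicates 1, 3 and 4 were extremes for 0 to 3 genes, each below its share over all genes. Within a sex, 1 library stood far from the other 3 in 9 of 64 groups of CPM, or 14.1%, against 8.22% over all genes tested. Between the highest and the lowest library 13 genes differed by less than 1.5-fold and 7 by more than 2-fold. The median coefficient of variation was 14.2%, against 16.4% over all genes tested and 12.1% over those at least as abundant as the lowest of the 32. The deviation of a library's genes from their means followed transcript length across genes in several libraries. Spearman's rho was -0.172, -0.107, -0.281 and 0.365 over the Females, and 0.252, -0.241, 0.242 and -0.032 over the Males. With the G and C content of transcripts, rho was -0.205, -0.069, 0.230 and -0.145 over the Females, and 0.069, 0.134, -0.100 and 0.023 over the Males. The part of transcript length or of G and C content in these results was not tested.

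Near-identical copies could draw reads from some of the genes, since the rule for reads with several matches is unknown here. Eno1b, a retrogene copy of Eno1, was listed at 2.09 to 5.71 CPM, Pgam1-ps2 at 0.176 to 1.31 CPM and Mpc1-ps at 0.302 to 1.43 CPM. Mpc1 itself was at 3.79 CPM in its lowest library, so its level and share are uncertain. Gapdh, Pgam1 and Ldha also have listed pseudogenes and carry the same doubt. Hk1os, which lies antisense to Hk1, was listed at 0.684 to 1.70 CPM.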

How the data were processed

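RNA of 8 heart libraries, 4 Female and 4 Male, was analysed from the deposited counts per gene, whole numbers that the authors did not normalize. Tools named in the submitters' processing notes are Trimmomatic 0.36, STAR 2.5.2b, featureCounts and Subread 1.5.2, with the build GRCm38 (mm10). Strandedness, the gene annotation used and the rule for reads with several matches were not given in the sources. A deposited normalized signal, made by the authors with 1 divisor for each library, served only as an alternative. Totals were 20105913 to 51134291 counts, and replicate libraries differed by more than sampling noise.

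Male minus female was tested by the robust quasi-likelihood method of edgeR 4.0.16 under R 4.3.3, 2-sided, with TMM scaling and genes kept by filterByExpr at a minimum count of 10. Adjustment (Benjamini-Hochberg) covered 16377 genes at a threshold of 0.05. Each log2 fold change carries its standard error. Shares at 12 steps were compared by exact permutation in Python 3.11.15 with scipy 1.17.1 and numpy 2.4.6, and correlations are descriptions without a test. GENCODE M21 gave transcript lengths. RefSeq promoter windows were searched on both strands. Fits were tested on simulated data. Alternatives were DESeq2 1.42.0, limma-voom, limma 3.58.1 on the log2 normalized signal with 1 added, other scalings and filters, a replicate block, an erythroid covariate and leaving out libraries.

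The 32 genes, the marker lists and the tests were chosen with earlier results of these data known. All 32 were to be named, and of the 48 other pathway genes those that passed and the 4 with the highest level per kb. Of each marker list only counts, sums and up to 3 top genes were to be given. Other genes named are marked.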

Additional observations from a re-analysis of the deposited data

Results flagged for a closer look

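In the 32 genes and the 12 shares, each sex was searched for a library whose gap to the nearest of the other 3 was most of the whole range. Of 88 such groups 11 stood out, where chance alone flags about 1 in 20, and 6 of the 11 were values of Male replicate 2. For CPM alone it was 9 of 64 groups (14.1%), against 8.22% over all genes tested. Genes and shares of 1 step are not independent, and Male replicate 2 was an extreme for 65.3% of all genes.

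Male replicate 2 was high in Hk2 (363 CPM, with the other Males at 179 to 203 CPM) and in Mpc2 (74.4 CPM, others 49.2 to 50.9 CPM). It was low in Pfkfb2 (4.75 CPM, others 7.07 to 7.28 CPM), Slc16a1 (164 CPM, others 182 to 185 CPM) and Pdk4 (2.86 CPM, others 6.70 to 7.34 CPM). Its Hk2 share was 54.6%, with the other Males at 34.0% to 37.5%.

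Female replicate 4 was low in Pgam2 (317 CPM, with the other Females at 507 to 513 CPM) and in Mpc2 (47.5 CPM, others 56.8 to 58.4 CPM), and its Pfkm share was high at 20.9%, others 16.5% to 16.9%. Female replicate 1 was low in Hk1 (314 CPM, others 444 to 471 CPM). Male replicate 3 was high in Pdhb (251 CPM, others 227 to 229.8 CPM). Male replicate 2 had the lowest mitochondrial share of counts, 0.707%, and Female replicate 4 the highest, 1.72%; the part of this in the values above was not tested.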

How the results depend on the processing

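Every alternative called between 5 and 9 genes of the whole table and 0 of the 32. The lowest adjusted p of any of the 32 genes in any setting was 0.835. With the replicate number as a block, 5 genes were called, 0 of the 32. Libraries with the same number did not deviate together (r of -0.469, -0.021, -0.381 and 0.093 for numbers 1 to 4). Whether they share a litter or a day is not stated in the labels and cannot be told from these r. The adjusted test of the 12 shares could hardly be passed in any setting, so its count of 0 says nothing about stability. With 4 libraries per sex, small differences could not be detected.

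The log2 fold change, male minus female, changed sign in many of the 32 genes. With library size alone it was -0.0022 for Slc2a1, -0.022 for Tpi1, -0.025 for Pkm and -0.017 for Mpc2. Without a filter on low counts it was -0.0027 for Pfkp, -0.011 for Tpi1 and -0.0054 for Pkm. With limma-voom it was -0.0029 for Pkm and -0.046 for Pklr. With the replicate number as a block it was -0.0029 for Pklr. With an erythroid covariate it was -0.17 for Pklr. With 1 library left out in turn, or Female replicate 1 and Male replicate 2 together, the log2 fold change changed sign in 22 genes. It ran for Slc2a1 from -0.013 to 0.091, Slc2a4 from -0.0026 to 0.17, Hk2 from -0.10 to 0.30, Gpi1 from -0.0019 to 0.22, Pfkl from -0.087 to 0.18, Pfkp from -0.065 to 0.11, Pfkfb2 from -0.15 to 0.16, Pfkfb3 from -0.21 to 0.016, Aldoa from -0.047 to 0.16, Tpi1 from -0.070 to 0.051 and Gapdh from -0.031 to 0.13. It further ran for Pgam1 from -0.29 to 0.13, Pgam2 from -0.053 to 0.54, Eno1 from -0.016 to 0.18, Eno3 from -0.13 to 0.21, Pkm from -0.11 to 0.085, Pklr from -0.29 to 0.48, Slc16a3 from -0.047 to 0.21, Pdk2 from -0.042 to 0.15, Pdk4 from -0.33 to 0.014, Mpc1 from -0.21 to 0.18 and Mpc2 from -0.13 to 0.090. Differences in share, male minus female in percentage points, that changed sign in this way ran for Hk2 from -5.32 to 2.20, Pfkm from -1.91 to 0.314, Pgam2 from -2.07 to 6.41, Eno3 from -1.81 to 0.469, Pkm from -0.112 to 0.0576, Slc16a3 from -0.0345 to 4.10 and Mpc2 from -5.21 to 3.71. 

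The median r over pairs of the 32 genes was 0.242 with library size alone and 0.157 for deviations from the mean of each sex, and ran from 0.042 to 0.159 with 1 library left out. The cause of these changes was not tested.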
